A study of Mus musculus with 4 samples.

Results

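The EGF, HGF and FGF growth signal genes described here are 10 genes: the ligands Nrg1, Ereg, Hbegf, Hgf, Fgf2, Fgf7 and Fgf10 and the receptors Egfr, Met and Fgfr1. They were chosen by name from the 18619 genes of the table, and all 10 had at least 1 UMI (unique molecular identifier, a count of captured mRNA molecules). The series held 4 samples in 3 groups, 2 WT libraries and 1 library each of LATS1/2 KO 1w and LATS1/2 KO 2w, of which LATS1/2 KO 1w is reported. Its cells came from adult C57BL/6J mice with Pdgfrb-CreERT2, a Tomato reporter and floxed alleles of both Lats1 and Lats2, the kinases that hold back the co-activators YAP and TAZ, 1 week after Cre was induced with tamoxifen. The cells were sorted as Tomato+ PDGFRb+ intestinal stroma and read from the 3′ ends of transcripts with a droplet kit. Pdgfrb-CreERT2 marks fibroblasts, smooth muscle and mural cells alike, so the library is a mixture of stromal types, and WT cells were not analysed here, so nothing below measures an effect of the deletion.

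These genes belong to receptor tyrosine kinase pathways through which gut stroma signals to the epithelium and to itself. EGF family ligands bind EGFR and its ERBB relatives, and NRG1, EREG and HBEGF are made as membrane proteins and shed. HGF, a mesenchymal factor, binds MET. FGF7 and FGF10 act mainly on the epithelial splice form of FGFR2, whereas FGF2 binds FGFR1 and needs heparan sulfate to do so.

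The 4108 cells held 46054627 UMIs, with a median of 10726 per cell and a range from 1965 to 35727. Clustering without the 10 genes gave 10 clusters, and 5 of them carried every marker of a stromal type used by the study. These were the FB4-like cluster (687 cells, 5 of 5 markers), the FB5-like cluster (205 cells, 6 of 6), the smooth muscle or SMC-like cluster (76 cells, 6 of 6), the mural or MC-like cluster (69 cells, 7 of 7) and the villus fibroblast vFB3-like cluster (45 cells, 5 of 5). Clusters 1, 2, 4, 5 and 6 (3026 cells) were left unclassed. They carried the villus fibroblast marker Adamdec1 at 4104 to 6597 CPM (UMIs of a gene per 1000000 UMIs), against 178 CPM in the FB4-like cluster, but not the other 3 markers of that list together. The SMC-like cluster also had Adamdec1 at 4237 CPM beside Myh11 at 2232 CPM, and the MC-like cluster also had Ano1, a marker of interstitial cells of Cajal, at 68.6 CPM. Vil1 and Krt8 of the epithelial markers had 0 UMIs in the library and Epcam had 4. Pecam1 had 0 and Cdh5 had 7, but the authors had taken out endothelial (and immune) cells before deposit, so the latter counts were set by that step. With 1 library there are no replicates and no test. Every interval below is an exact 95% interval for counting error only. Averaged over cells with 5 or more Xist UMIs, UMIs that float free in the droplets could account for up to 8.64% of the library level of a gene. This free RNA bound is an average, not a limit for each cell, and was not measured cluster by cluster.

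Each growth signal had its own distribution over the stroma. Nrg1 and Met were highest in SMC-like cells, Hbegf in MC-like cells, Fgf10 in vFB3-like cells, Egfr, Fgf2 and Fgfr1 in FB4-like cells, Fgf7 in SMC-like and FB4-like cells, and Ereg and Hgf in unclassed clusters. Some of these first places do not differ from the next beyond counting error, as given gene by gene below.

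**Figure D1:**
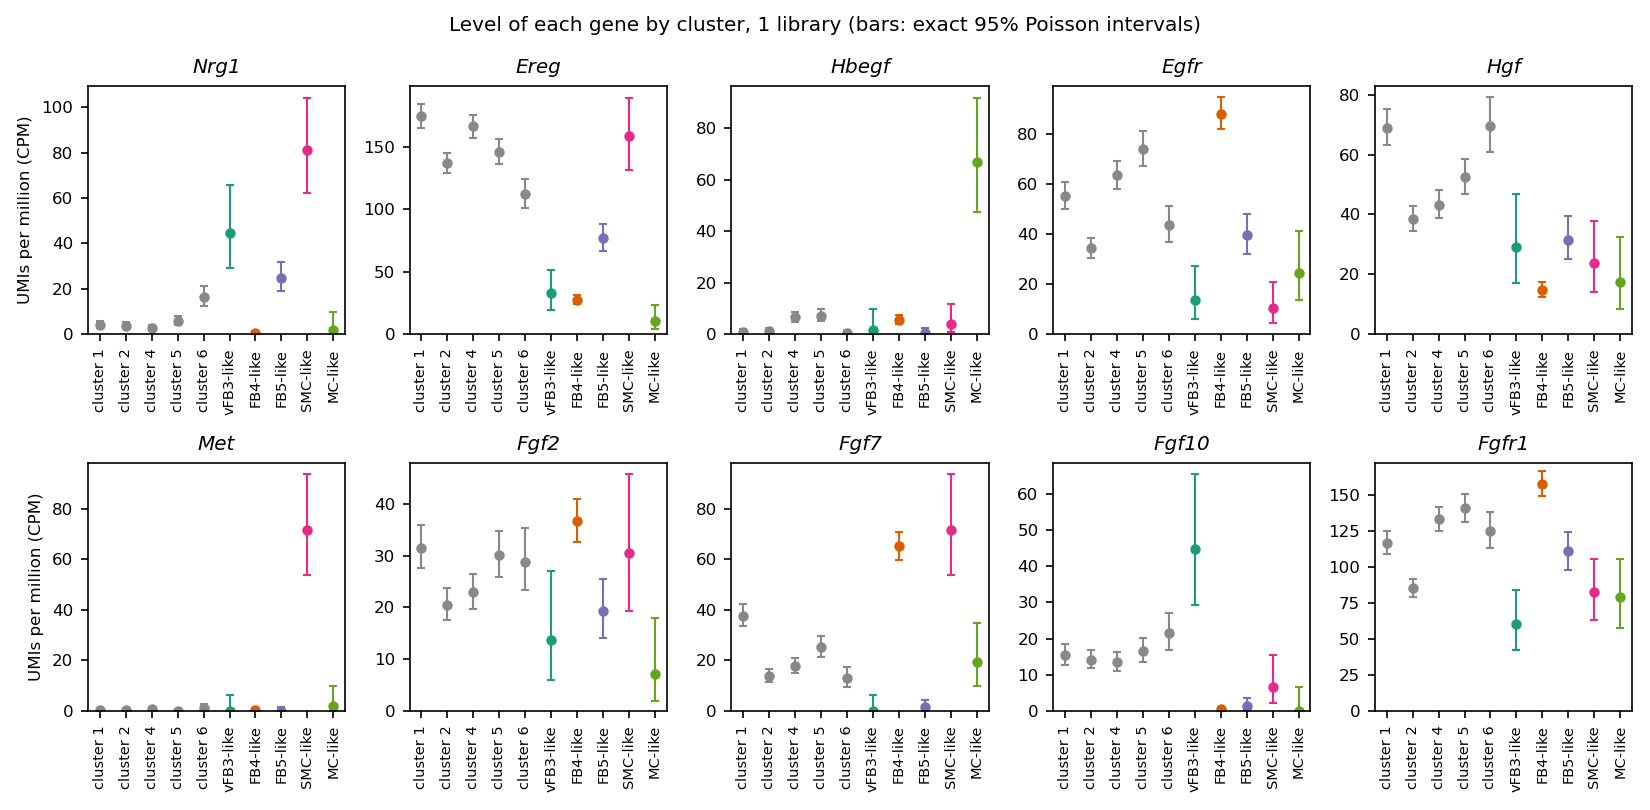
Level of each of the 10 genes in CPM (vertical axis, linear from 0, own scale per gene) in the 5 unclassed clusters (grey) and the 5 named types (coloured), with points for the level and bars for exact 95% Poisson intervals in 1 library. Met lies at 71.7 CPM in SMC-like cells and at 1.76 CPM or lower in the other 9 clusters, and Hbegf lies at 66.9 CPM in MC-like cells and at 7.19 CPM or lower elsewhere.

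Nrg1 encodes neuregulin 1, a ligand of ERBB3 and ERBB4 (ENSMUSG00000062991, chr8:31814551-32884029 on mm10, minus strand). Its level was 81.0 CPM in SMC-like cells (62.0 to 104), 44.7 in vFB3-like cells (29.2 to 65.5), 24.8 in FB5-like cells (19.0 to 31.8) and 16.3 in cluster 6 (12.2 to 21.3). Each of these 4 levels differed from the next by more than counting error. The other unclassed clusters lay at 2.69 to 5.85 CPM, MC-like cells at 1.76 (1 UMI) and FB4-like cells at 0.703 CPM (6 UMIs), next to the free RNA bound of 0.613 CPM. The 61 Nrg1 UMIs of SMC-like cells came from 27 of 76 cells, and 1 cell held 25 of them. Without that cell the level was 48.9 CPM, still above the unclassed clusters at 5.16 CPM but no longer clear of vFB3-like cells. The same cell held 35 of the 119 Ereg UMIs and 36 of the 75 Areg UMIs of the cluster, and whether it is 1 cell or a doublet was not tested. Reads from transcript 3′ ends do not tell the Nrg1 isoforms apart.

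Ereg encodes epiregulin, a ligand of EGFR and ERBB4 (ENSMUSG00000029377, chr5:91074622-91093646, plus strand). It had 174 CPM in cluster 1, 166 in cluster 4, 158 in SMC-like cells (131 to 189) and 146 in cluster 5, neighbours that counting error does not separate. Ereg had 137 CPM in cluster 2, 112 in cluster 6 and 76.8 in FB5-like cells (66.4 to 88.5). It was lower still in vFB3-like cells at 32.7 CPM, in FB4-like cells at 27.4 CPM (24.0 to 31.2) and in MC-like cells at 10.6 CPM, where 6 UMIs lie at the free RNA bound of 10.5 CPM. The 6 clusters with Adamdec1 at 4104 CPM or more were therefore the 6 highest in Ereg. Within the SMC-like cluster, Ereg was at 120 CPM (65.8 to 202) in the 10 cells with under 1000 CPM Adamdec1. It was at 165 CPM (135 to 200) in the other 66, with intervals that overlap. Without the 1 cell with 35 UMIs, Ereg in SMC-like cells was 114 CPM.

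Hbegf encodes heparin-binding EGF-like growth factor, a ligand of EGFR and ERBB4 that is also an immediate early gene (ENSMUSG00000024486). It had 66.9 CPM in MC-like cells (47.3 to 91.8), 38 UMIs in 24 of 69 cells. The next levels were 7.19 CPM in cluster 5, 6.53 in cluster 4 and 5.51 in FB4-like cells, and the step down from MC-like cells was 9.30-fold (5.85 to 14.7). Cluster 1 had 0.948 CPM, cluster 2 had 1.27, and SMC-like, vFB3-like, FB5-like cells and cluster 6 had 1 to 3 UMIs each. The MC-like cluster held 1.23% of all UMIs and 18.7% of those of Hbegf. Immediate early genes (7 genes including Fos and Egr1) summed to 9009 CPM in MC-like cells and 9340 CPM in cluster 5, where Hbegf was at 66.9 and 7.19 CPM. The part of the immediate early state in the Hbegf level of MC-like cells was not tested.

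Egfr encodes the EGF receptor (ENSMUSG00000020122, chr11:16752203-16918158, plus strand). It ranged from 88.2 CPM in FB4-like cells (82.0 to 94.7) to 10.6 CPM in SMC-like cells (8 UMIs, 4.59 to 20.9), an interval that includes the free RNA bound of 5.003 CPM. Cluster 5 at 73.9, cluster 4 at 63.5 and cluster 1 at 55.3 CPM followed, each step beyond counting error, and cluster 6, FB5-like cells, cluster 2, MC-like and vFB3-like cells lay at 43.6, 39.6, 34.3, 24.6 and 13.8 CPM.

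**Figure D2:**
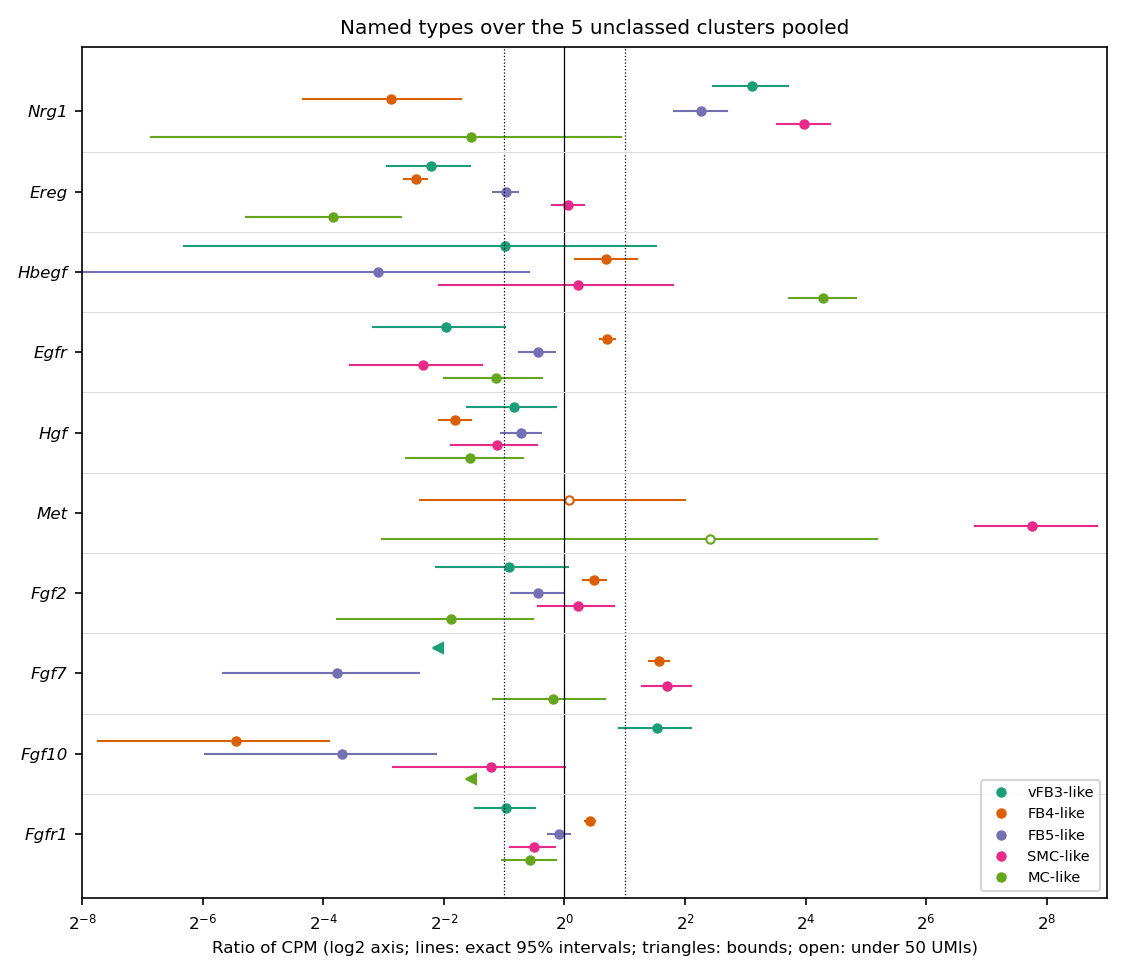
Ratio of the CPM of each gene in each of the 5 named types over the 5 unclassed clusters pooled (horizontal axis, log2 scale), with lines for exact 95% intervals, triangles for bounds where a type had 0 UMIs, open points for fewer than 50 UMIs in all, and dotted lines at 2-fold. Nrg1 lies to the right of the 2-fold line in vFB3-like, FB5-like and SMC-like cells and to the left in FB4-like cells, and Fgfr1 lies between the lines in all 5 types, with intervals that cross the line in vFB3-like and MC-like cells.

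Hgf encodes hepatocyte growth factor (ENSMUSG00000028864, chr5:16553495-16620152, plus strand, with 2 predicted genes annotated on the same strand). It was highest in cluster 6 at 69.7 CPM (60.9 to 79.4) and cluster 1 at 68.9 CPM (63.1 to 75.2), which did not differ beyond counting error. Clusters 5, 4 and 2 had 52.5, 43.3 and 38.4 CPM. The named types were all lower, with FB5-like cells at 31.6, vFB3-like cells at 29.2, SMC-like cells at 23.9, MC-like cells at 17.6 and FB4-like cells at 14.8 CPM (12.3 to 17.6). The step from cluster 2 to FB5-like cells was within counting error (1.215-fold, 0.948 to 1.57). The interval of vFB3-like cells (17.0 to 46.8) includes the levels of clusters 4 and 2.

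Met encodes the HGF receptor (ENSMUSG00000009376, chr6:17463800-17573980, plus strand). Of its 69 UMIs, 54 (78.3%) were in SMC-like cells, which held 1.63% of all UMIs. The level there was 71.7 CPM (53.9 to 93.6), in 35 of 76 cells, and no cell held more than 5 UMIs. MC-like cells had 1 UMI, FB4-like cells 3, the unclassed clusters 11 over 3026 cells, and vFB3-like and FB5-like cells 0, which allows up to 5.16 and 1.20 CPM at 3 counts. Within the SMC-like cluster, Met was at 112 CPM (59.5 to 191) in the 10 cells with under 1000 CPM Adamdec1 and at 64.4 CPM (46.2 to 87.4) in the other 66, with intervals that overlap.

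As the gene with the sharpest distribution, Met was also examined at its start. Of 6 genes with a RefSeq promoter window (250 bases before to 50 after a start, GRCm38.p6), Met was the one with the AP-1 letters TGANTCA, a palindrome searched on both strands, which 7.81% of all 32851 windows hold. The TEAD letters CATTCC, searched on both strands, were in 14.7% of all windows and in none of the 7 windows of these 6 genes, which are Egfr, Fgf10, Fgf2, Fgf7, Hgf and Met. The match begins 54 bases before the RefSeq start, inside an exon of 2 GENCODE transcripts that begin further upstream. It is shown in capitals with 10 bases to either side, a stretch at chr6:17463893-17463919 on the plus strand. A match is a description of these letters and not a binding site.
Met: gttgcccggcTGAGTCAcgggccgggc

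Fgf7 and Fgf10 are closely related secreted FGFs that share a receptor, and their levels went apart among the named types. Fgf7 (ENSMUSG00000027208, chr2:126034658-126091185, plus strand) had 71.7 CPM in SMC-like cells (53.9 to 93.6) and 65.1 CPM in FB4-like cells (59.8 to 70.7), which did not differ beyond counting error, and then 37.7 CPM in cluster 1. Clusters 5, 4, 2 and 6 had 25.1, 17.6, 13.9 and 12.9 CPM and MC-like cells 19.4 CPM. FB5-like cells had 4 UMIs (1.60 CPM, below the free RNA bound of 2.54 CPM) and vFB3-like cells 0 UMIs, which allows up to 5.16 CPM.

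Fgf10 (ENSMUSG00000021732, chr13:118669791-118792115, plus strand) had 44.7 CPM in vFB3-like cells (29.2 to 65.5), 26 UMIs in 19 of 45 cells. Cluster 6 followed at 21.5 CPM (16.8 to 27.2) and the other unclassed clusters at 13.5 to 16.6 CPM, where neighbours in the order did not differ beyond counting error. SMC-like cells had 5 UMIs (6.64 CPM), FB5-like and FB4-like cells 3 each (1.20 and 0.352 CPM, next to and below the free RNA bound of 1.03 CPM) and MC-like cells 0, which allows up to 5.28 CPM. FB4-like cells were therefore high in Fgf7 with Fgf10 at background, vFB3-like cells high in Fgf10 with no Fgf7 UMI, and FB5-like cells at background for both. The level in vFB3-like cells rests on few cells and differed between the 2 sets of columns marked M and F in the table, with 21 Fgf10 UMIs in 24 M cells (76.1 CPM) and 5 in 21 F cells (16.4 CPM).

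Fgf2 encodes basic FGF (ENSMUSG00000037225, chr3:37348346-37410108, plus strand, overlapping Gm43439 on the same strand and Nudt6 on the other). It ranged from 36.7 CPM in FB4-like cells (32.8 to 41.0) to 7.04 CPM in MC-like cells (4 UMIs, 1.92 to 18.0). No neighbours in its order differed beyond counting error. Fgfr1, which encodes an FGF receptor (ENSMUSG00000031565, chr8:25513654-25575718, plus strand), lay short of a 2-fold difference from the unclassed level in all 5 named types. In vFB3-like cells its ratio was 0.512 (0.356 to 0.713), just short, and it was past 2-fold in the columns marked F alone (49.1 against 119.0 CPM). It ranged from 158 CPM in FB4-like cells to 60.2 CPM in vFB3-like cells, with the unclassed clusters at 85.3 to 141 CPM.

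To compare the named types with the unclassed clusters pooled, a gene was called when its CPM was at least 2-fold higher or lower and it had at least 50 UMIs in the compared cells together. All genes other than Met reached 50 UMIs in every type. Met reached them in the SMC-like comparison because of its level there, so its call is no separate evidence. In vFB3-like cells 2 of the 10 genes were higher (8.54% of all genes tested were) and 3 lower (10.6%). Nrg1 was 8.66-fold (5.50 to 13.1) and Fgf10 2.90-fold (1.88 to 4.30) the unclassed level, Ereg 0.216-fold and Egfr 0.255-fold, and Fgf7 at most 0.235-fold. The Fgf10 ratio was 4.19 in M columns and 1.25, short of 2-fold, in F columns. The median ratio was 0.512 over the 9 genes with 50 UMIs and 1.08 over all genes tested.

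In FB4-like cells 1 gene was higher (3.79% of all genes) and 4 were lower (6.49%). Fgf7 was 2.96-fold (2.65 to 3.31), Nrg1 0.136-fold (0.0493 to 0.303), Ereg 0.182-fold (0.159 to 0.207), Hgf 0.284-fold (0.235 to 0.341) and Fgf10 0.0228-fold (0.00469 to 0.0670). Egfr at 1.64-fold (1.5 to 1.78) fell short of 2-fold. The median ratio was 1.34 over the 9 genes and 0.923 over all genes, so the genes of this set moved apart and not together.

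In FB5-like cells 1 gene was higher (5.85% of all genes) and 3 were lower (11.2%). Nrg1 was 4.81-fold (3.54 to 6.46), Fgf7 0.0728-fold, Fgf10 0.0778-fold and Hbegf, with 1 UMI, 0.117-fold (0.00294 to 0.667). Ereg at 0.508-fold (0.438 to 0.587) lay just short of the call. The median ratio was 0.608 against 1.002 over all genes.

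In SMC-like cells 3 genes were higher (7.01% of all genes) and 3 were lower (9.97%). Met was 216-fold (112 to 458), Nrg1 15.7-fold (11.5 to 21.1) and Fgf7 3.26-fold (2.43 to 4.31). The Nrg1 ratio was 5.28 in cells with at most 5% mitochondrial UMIs, a filter that kept 8 of the 76 SMC-like cells. Egfr was 0.197-fold (0.0850 to 0.389), Hgf 0.460-fold (0.272 to 0.729) and Fgf10, with 5 UMIs, 0.431-fold (0.139 to 1.01). Ereg was 1.05-fold (0.864 to 1.25). The median ratio was 1.11 against 1.002.

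In MC-like cells 1 gene was higher (9.92% of all genes) and 6 were lower (10.9%). Hbegf was 19.6-fold (13.2 to 28.5), and 7.66-fold in cells with 8000 to 14000 UMIs, a filter that kept 8 of the 69 MC-like cells. Ereg was 0.0698-fold (0.0256 to 0.152), Fgf2 0.270-fold (0.0734 to 0.693), Hgf 0.339-fold (0.162 to 0.624) and Egfr 0.457-fold (0.249 to 0.769). Nrg1 with 1 UMI was 0.341-fold (0.00858 to 1.93) and Fgf10 with 0 UMIs at most 0.342-fold, so 2 of the 6 rest on almost no counts. The median ratio was 0.342 against 0.998 over all genes. MC-like cells were also the shallowest, with a median of 6793 UMIs per cell against 12080 in FB4-like cells.

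Depth was evened out by thinning each cell to 5000 UMIs. Met was then seen in 26.7% of 75 SMC-like cells (17.1 to 38.1) and 0.101% of 2971 unclassed cells, against 46.1% and 0.364% before thinning. Hbegf was seen in 29.2% of 48 MC-like cells (17.0 to 44.1; 21 shallower cells left out) and 1.48% of unclassed cells, against 34.8% and 2.84% unthinned. Fgf10 was seen in 27.3% of 44 vFB3-like cells (15 to 42.8) and 0.148% of 676 FB4-like cells, against 42.2% and 0.437%. Fgf7 was seen in 28.4% of those FB4-like cells (25 to 32) and 0.5% of 200 FB5-like cells, against 47.3% and 0.976%. Nrg1 was seen in 16.0% of SMC-like and 15.9% of vFB3-like cells, against 35.5% and 22.2% unthinned, so shares did not separate these clusters as the summed level did.

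The columns marked M (1983 cells) and F (2125 cells) give each value again in separate cells of the library. Over all 7 comparisons, with those of the next paragraphs, 29 ratios were called, and 28 had the same direction in M and in F columns. The exception was Nrg1 in MC-like cells, with 1 UMI in all. Past 2-fold in both sets were 22 of the 29. Ratios with 0 UMIs in a set entered as bounds. The 29 were called on M and F cells together, so their agreement is no separate evidence. Met in SMC-like cells was 82.5 CPM in M and 67.0 CPM in F columns, Nrg1 there was 135 and 57.4 CPM, and Hbegf in MC-like cells was 50.2 and 79.0 CPM. Levels also differed between the marks in large groups. Nrg1 in the unclassed clusters was 7.21 (5.92 to 8.69) in M and 3.45 CPM (2.64 to 4.42) in F columns, marks that are unequally spread over the clusters compared below. Fgf7 was lower in M than in F columns both in the unclassed clusters, at 14.6 (12.8 to 16.7) and 28.2 CPM (25.8 to 30.7), and in FB4-like cells, at 48.1 (41.3 to 55.7) and 78.0 CPM (70.3 to 86.2). The marks follow the authors' division of the library by Xist, which was seen in every F cell and in 0 M cells. They divide 1 library, so the 2 sets were not used as replicates.

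**Figure D3:**
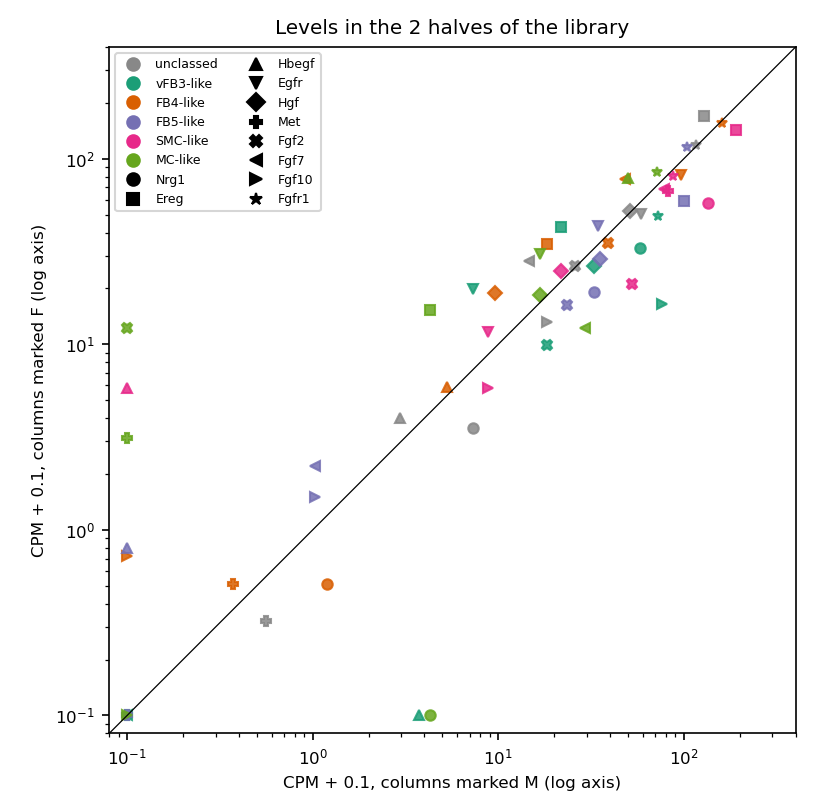
Level of each gene (symbol) in each named type and the unclassed clusters (colour), in the columns marked M (horizontal axis) and F (vertical axis), as CPM + 0.1 on log axes with the line of equal levels. Most levels above 10 CPM in both lie near the line, with Fgf10 in vFB3-like cells (76.1 and 16.4 CPM) among the furthest from it, and Fgf7 lies above it in the unclassed clusters (14.6 and 28.2 CPM).

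The mRNA of YAP/TAZ targets was used to divide the unclassed clusters, since YAP and TAZ are what Lats1 and Lats2 restrain. It is not a measure of YAP or TAZ themselves. The clusters were split by the summed level of the targets Amotl2, Ajuba and Lats2, kept out of the clustering, into high (clusters 2 and 4, 270 and 382 CPM) and low (clusters 1, 5 and 6, 88.8 to 124 CPM). Lats2 is itself floxed in these cells, so its level need not follow YAP/TAZ. Each of the 3 targets alone was higher in both high clusters than in every low cluster, with Amotl2 at 192 and 284 against 53.9 to 76.4 CPM, Ajuba at 14.3 and 15.9 against 3.12 to 4.91 CPM, and Lats2 at 64.6 and 82.0 against 31.8 to 44.5 CPM. The split compares clusters of KO cells, and it does not show which cells had lost the kinases. Of the 10 genes, 0 were higher (2.56% of all genes were) and 1 was lower (2.87%). Nrg1 had 3.27 CPM in the high and 7.04 CPM in the low clusters, a ratio of 0.465 (0.330 to 0.647). Nrg1 lay at 3.79 CPM in cluster 2 and 2.69 in cluster 4, and at 3.93 in cluster 1, 5.85 in cluster 5 and 16.3 in cluster 6, so the lower level rests mostly on cluster 6. That cluster was high in 3 of 5 vFB3 markers (P2rx1, Mmp10 and Fhl2) and 3 of 6 SMC markers (Actg2, Myh11 and Hhip), the markers of the 2 types highest in Nrg1. Mmp10 had 108 CPM there, against 2.44 in cluster 1 and 1060 in vFB3-like cells, while the vFB3 marker Tacr1 had 0 UMIs. Myh11 had 73.7 CPM against 9.34 in cluster 1 and 2232 in SMC-like cells. Cluster 2, on the YAP-target-high side with Nrg1 at 3.79 CPM, was also high in 3 of 5 vFB3 markers (Itga8, Mmp10 and Fhl2). The part of these markers in the result was not tested. Without cluster 6 the Nrg1 ratio was 0.683 (0.467 to 0.997), short of 2-fold. It was also short of 2-fold without cluster 4 (0.539), in F columns alone (0.675) and in cells with at most 5% mitochondrial UMIs (0.764).

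Lower ratios short of 2-fold were found for Fgf7 at 0.553 (0.473 to 0.645; 0.488 without cluster 6), Hgf at 0.645 (0.584 to 0.711) and Fgf2 at 0.709 (0.618 to 0.814). Egfr, Fgf10 and Fgfr1 lay at 0.806, 0.811 and 0.849 with intervals below 1, and Ereg at 0.991 (0.937 to 1.05) and Hbegf at 1.22 (0.832 to 1.81) did not differ beyond counting error. For Ereg the pooled ratio hides opposite differences, at 143 (134 to 153) in high against 119 CPM (111 to 126) in low clusters in M columns, and 155 (148 to 163) against 190 CPM (180 to 199) in F columns. F cells were 837 of the 1401 cells in the high and 694 of the 1625 in the low clusters. Hbegf there turned on which clusters were compared, at 4.997-fold without cluster 5 and 0.412-fold without cluster 4, the clusters high in immediate early genes. The median over the 9 genes was 0.806 and over all genes 0.976. Because immediate early genes also differed between these clusters, the ratios were taken again within clusters low and within clusters high in them. Nrg1 was 0.492 (0.318 to 0.746) and 0.460 (0.254 to 0.812), Fgf7 0.463 (0.372 to 0.572) and 0.700 (0.551 to 0.888), and Hgf 0.555 (0.486 to 0.633) and 0.825 (0.705 to 0.965). Within the clusters low in immediate early genes 0 of the 10 genes were higher (2.29% of all genes) and 2 lower (4.12%), and within those high in them 0 were higher (2.51%) and 1 lower (1.66%). Cluster 6 also weighs on the side low in immediate early genes, where its level over cluster 1 was 4.14-fold for Nrg1 and 0.343-fold for Fgf7. With Nrg1 at 3.79 CPM in cluster 2 and 3.93 in cluster 1, its call on that side is lost without cluster 6. There cluster 2 had 13.9 CPM of Fgf7, against 37.7 in cluster 1 and 12.9 in cluster 6. Hgf, at 43.3 and 38.4 CPM in clusters 4 and 2, was lower in each than in every YAP-target-low cluster (52.5 to 69.7 CPM). Ereg went opposite ways, at 0.879 (0.815 to 0.948) and 1.14 (1.04 to 1.24).

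The clusters high in immediate early genes (4 and 5, 5832 and 9340 CPM) were compared with those low in them (1, 2 and 6, 496 to 2116 CPM). Immediate early genes rise with tissue dissociation as well as with signals in the animal, and these could not be told apart here. Of the 10 genes, 1 was higher (2.63% of all genes) and 0 were lower (0.989%). Hbegf had 6.82 CPM in the high and 0.983 CPM in the low clusters, 6.94-fold (4.21 to 12.0). It was 9.56-fold (4.44 to 23.6) within the YAP-target-low and 5.17-fold (2.66 to 11) within the YAP-target-high clusters. It was the 1 gene higher in both (2.33% and 3.41% of all genes), and 0 were lower in either (1.03% and 0.749%). Egfr, the Hbegf receptor, was 1.55-fold (1.41 to 1.71) and Fgfr1 1.31-fold (1.23 to 1.40), both above 1 within each set of clusters. Ereg was 1.07-fold (1.01 to 1.13), at 0.940 (0.865 to 1.02) within the YAP-target-low and 1.22 (1.13 to 1.32) within the YAP-target-high clusters. Nrg1 at 0.683 (0.487 to 0.948) lay below 1, but its intervals included 1 within the YAP-target-low (0.496 to 1.14) and YAP-target-high clusters (0.390 to 1.26). The Nrg1 ratio turned on the clusters compared, at 1.05 without cluster 6 and 0.984 without cluster 4. It was 0.565 without cluster 1, 0.527 without cluster 2 and 0.452, past 2-fold, without cluster 5. Hgf at 0.855 (0.774 to 0.943) lay below 1, and did so within the YAP-target-low clusters (0.759) but not within the YAP-target-high ones (1.13, 0.967 to 1.32). The median over the 9 genes was 0.997 and over all genes 1.03.

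**Figure D4:**
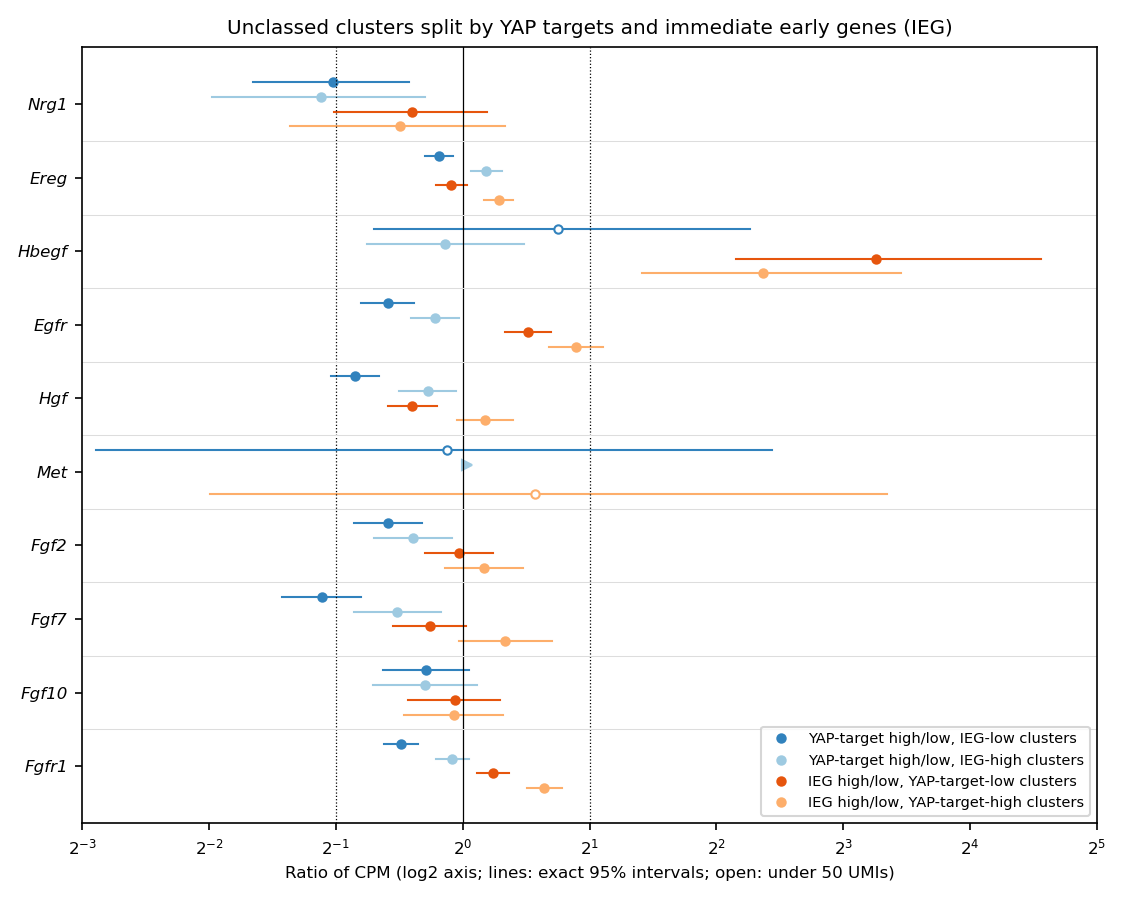
Ratio of the CPM of each gene (log2 axis) between unclassed clusters high and low in YAP targets (blue) and between those high and low in immediate early genes (orange), each within the clusters low or high in the other, with lines for exact 95% intervals, open points for fewer than 50 UMIs, a triangle for a bound and dotted lines at 2-fold. Hbegf lies at 5.17 and 9.56 in the orange comparisons, and Nrg1 lies at 0.492 and 0.460 in the blue ones.

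Other genes of the same pathways were followed through 8 lists of 84 genes, 76 of them in the table. Of the EGF family ligands with 50 UMIs, 3 of 6 were higher in SMC-like cells and 0 lower (7.01% and 9.97% of all genes). These were Nrg1, Areg at 99.6 CPM (78.4 to 125; 5.49-fold) and Nrg2 at 30.6 CPM (10.8-fold), ligands of ERBB receptors. Of the 75 Areg UMIs there, 36 came from the 1 deep cell that also held many Ereg and Nrg1 UMIs, as given above. Areg was at 34.4 CPM (9.37 to 88.0) in the 10 cells low in Adamdec1 and 112 CPM (87.1 to 141) in the other 66. In FB4-like cells 0 of 6 were higher and 4 lower (Areg, Ereg, Btc and Nrg1), against 3.79% and 6.49% of all genes. In MC-like cells Hbegf was the 1 that was higher and Areg, Ereg, Btc and Nrg1 were lower (9.92% and 10.9% of all genes). Btc, which encodes betacellulin, reached 86.0 CPM in vFB3-like cells (2.61-fold, 1.93 to 3.47). Of the receptors that bind NRG1, Erbb4 was not analysed here and Erbb3 had 14 UMIs in the whole library, 8 of them in the unclassed clusters, 5 in FB4-like cells and 1 in SMC-like cells. Erbb2, their co-receptor, had 8.45 CPM in the unclassed clusters, and was past 2-fold lower in SMC-like cells (3 UMIs, 0.472-fold, 0.0967 to 1.39) and MC-like cells (2 UMIs, 0.416-fold, 0.0502 to 1.52), with intervals that include 1.

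Among EGF receptor inhibitors, Errfi1 was 2.53-fold (2.19 to 2.92) in MC-like cells, at 352 CPM, beside the high Hbegf. In vFB3-like cells 4 of 8 genes of that list were lower and 1 was higher (10.6% and 8.54% of all genes), with Errfi1 at 20.6 CPM (0.149-fold) and Socs5 at 32.7 CPM (2.54-fold, 1.52 to 4.02). In the HGF system, Plat, which encodes tissue plasminogen activator, was 4.12-fold in FB4-like and 4.34-fold in FB5-like cells. Mst1r, the relative of Met, was 3.02-fold (1.62 to 5.19) in SMC-like cells, at 18.6 CPM, and 0.0650-fold in FB5-like cells with 1 UMI.

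Among FGF ligands, 4 of 9 were higher in FB4-like cells and 1 was lower (3.79% and 6.49% of all genes). Besides Fgf7 these were Fgf1 at 16.2 CPM (4.92-fold), Fgf9 at 6.10 CPM and Fgf18 at 5.28 CPM. In FB5-like cells 2 of 8 were higher and 4 lower (5.85% and 11.2% of all genes). Fgf9 in both types and Fgf18 in FB4-like cells reached 50 UMIs because of their level there (52 and 45 UMIs in FB4-like cells, against 4 and 20 in the unclassed clusters), so these counts are no separate evidence. Fgf9, a ligand of mesenchymal FGFR splice forms, had 52.0 CPM in FB5-like cells (43.5 to 61.8) against 0.121 CPM (4 UMIs) in the unclassed clusters, so the type at background for Fgf7 and Fgf10 held 130 of the 186 Fgf9 UMIs. Fgf1 was at 28.2 CPM in MC-like cells (16.1 to 45.7), an interval that overlaps that of FB4-like cells (13.6 to 19.1).

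Fgfr2, the receptor gene of FGF7 and FGF10, had 581 CPM in vFB3-like cells (521 to 647), 132 in the unclassed clusters, 67.8 in SMC-like cells, 19.0 in FB4-like cells, 14.1 in MC-like cells and 11.2 in FB5-like cells. It therefore followed the ligand Fgf10 and was low where Fgf7 was high in FB4-like cells. All 45 vFB3-like cells had an Fgfr2 UMI. These reads do not tell the epithelial from the mesenchymal splice form. The annotated span of Fgfr2 overlaps 36 genes on the same strand, and how this bears on its count was not tested. Of the heparan sulfate list, Gpc3, a glypican, was 4.37-fold in FB4-like cells at 239 CPM, and Sulf1 was 5.24-fold (187 CPM) and Sulf2 0.0463-fold (7.20 CPM) in FB5-like cells, enzymes that trim sulfate from heparan sulfate at the cell surface.

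The genes whose log2(CPM + 1) followed each member most closely over the 10 clusters were sought among 8191 genes with at least 500 UMIs, for the 7 members with that many. For Fgf10 the closest was Fgfr2 (Pearson r = 0.962, 10 clusters), then Ltbp1 and Aldh1a3. For Fgf7 they were Epdr1 (r = 0.977), Sspn and Auts2, and for Egfr Tpst1 (r = 0.966), Lrp1 and Sec16b. For Ereg they were Sgcb (r = 0.929), Aldh1a2 and Triqk, for Hgf Rad51b (r = 0.913), Ifi27l2a and Hcar1, for Fgf2 Qsox1 (r = 0.95), Plekho2 and Stard7, and for Fgfr1 Rab7b (r = 0.965), Glul and Nfia. Among the members themselves Egfr and Fgfr1 were the closest pair (r = 0.91), and Nrg1 and Egfr were the furthest apart (r = -0.74). These values describe 10 clusters of 1 library that share its depth and were picked as the highest of many.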

How the data were processed

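PDGFRb+ intestinal stromal cells of 1 LATS1/2 KO 1w library were measured by 10x 3′ v3 sequencing. The authors aligned reads to mm10 with Cell Ranger 3.0.2 and normalized with Seurat (3.0.1 per the labels), keeping cells with 1000 to 6000 genes and at most 7% mitochondrial UMIs, and removing clusters of immune and of endothelial cells. The deposited values are the natural log of 1 plus UMIs per 10000 of a cell. Within a tolerance of 0.001, 100.00% of nonzero values came out as whole UMIs when divided by the lowest value in the same cell, so UMI counts were read back from these deposited values and used. Annotation was GENCODE M21 and RefSeq.

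Cells were clustered with Seurat 5.3.0 in R 4.3.3 (2000 variable genes, UMIs and mitochondrial percent regressed out, 30 components, resolution 0.5), leaving the 10 genes, their pathway lists, YAP/TAZ targets, Vegfc, Vegfa and sex-linked genes out of the variable genes. A marker was high when at least 10% of cells had a UMI and its CPM was 2 times the median over other clusters. Clusters took a name when every marker of a list was high and no other list had more markers among its 10 leading genes. That rule was set after cluster levels were seen and changed once, because the first version named cluster 2 vFB3-like and left MC-like cells unnamed. The splits by YAP targets and immediate early genes were placed at the largest gap between clusters.

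Levels are CPM with exact Poisson intervals, ratios have exact conditional binomial intervals and shares Clopper-Pearson intervals, all at 95% and for counting error only (Python 3.11.15, scipy 1.17.1). A count of 0 was read as 3 counts. Calls needed 2-fold and 50 UMIs, and a gene whose 3-count limit lay on the other side of 1 counted as not called. The 50 UMIs were asked first of the background alone, and also of the 10 genes after their values were seen, which took out the call of Met in MC-like cells (1 UMI). With 1 library no test was run. Free RNA was bounded from the Y-linked UMIs of cells that had 5 or more Xist UMIs. Doublets had been gated out in the sort and cut by gene number by the authors, and no caller was run. The ratio and interval steps were tested on simulated data, the thinning was not.

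The members and lists were chosen with earlier results of these data known. The 10 members were named whatever their values, and pathway genes with at least 100 UMIs in the library where past 2-fold. Erbb3, Fgf18, the markers and, for Areg, the shared cell were named after their values were seen. The alternatives covered resolution, regression, genes kept out, cells, scaling and filters. Those for free RNA, cells with both Xist and Y-linked UMIs, a split of SMC-like cells by Adamdec1 and unclassed clusters left out 1 at a time were added after seeing the data.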

Additional observations from a re-analysis of the deposited data

How the results depend on the processing

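No paired analysis was possible because 1 library was analysed and no test was run. Of 952 member ratios recomputed under the alternatives, 846 stayed inside the counting interval of the reported value, 106 left it and 0 changed direction among those called. At resolution 0.2 no cluster was high in immediate early genes, so that comparison had no value there. Of the 29 called ratios, 19 stayed past 2-fold in every setting that gave them a value. The others were not past it in 1 to 4 settings. Their values nearest to 1 were 1.25 for Fgf10 in vFB3-like cells (F columns), 0.848 for Egfr and 0.825 for Fgf10 in SMC-like cells, 0.581 for Nrg1, 0.607 for Egfr and 0.762 for Fgf2 in MC-like cells, and 0.764 for Nrg1 in YAP-target-high clusters. For Fgf7 in vFB3-like cells (0.744), Hbegf in FB5-like cells (0.981) and Fgf10 in MC-like cells (0.695) they were upper bounds from 0 UMIs. Such a bound does not show a ratio that moved towards 1. Most of these rest on few UMIs. Of the 19, values over 1.5 times from the reported one were reached by Nrg1 (up to 15) and Egfr (0.0763 to 0.497) in vFB3-like cells, Nrg1 (0.0365), Ereg (0.121), Hgf (0.185) and Fgf10 (0.0472) in FB4-like cells, Fgf7 (0.0348 to 0.279) and Fgf10 (0.0465 to 0.152) in FB5-like cells, Nrg1 (5.28), Met (353) and Fgf7 (5.35) in SMC-like cells, Ereg (0.0281) and Hbegf (7.66 to 29.7) in MC-like cells, and Hbegf (11.2) in clusters high in immediate early genes.

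Counts of genes called were within 1.5 times the reported count in 187 of 200 cases. With M columns alone, 2 genes were higher in MC-like cells (reported 1), 2 were lower in YAP-target-high clusters (reported 1), and 0 were higher in clusters high in immediate early genes (reported 1), since Hbegf then had fewer than 50 UMIs, at 11.2-fold. With F columns alone, 1 gene was higher (reported 2) and 6 were lower (reported 3) in vFB3-like cells, and 0 were lower in YAP-target-high clusters. With at most 5% mitochondrial UMIs, 0 were lower in YAP-target-high clusters. With mitochondrial and ribosomal protein genes left out of the total, and with the free RNA bound subtracted, 5 were lower in vFB3-like cells (reported 3). Leaving out 1 unclassed cluster at a time, 1 gene was higher in YAP-target-high clusters (reported 0) without cluster 2 (Hbegf, 2.13-fold) and without cluster 5 (Hbegf, 4.997-fold), 2 were lower without cluster 4 (Hbegf at 0.412 and Fgf7 at 0.492), and 1 was lower in clusters high in immediate early genes (reported 0) without cluster 5 (Nrg1, 0.452). Without cluster 6 the count in YAP-target-high clusters was again 1 lower, but the gene was Fgf7 (0.488) and no longer Nrg1 (0.683). The cause of the other moves was not tested. Shares of cells with a UMI moved in 68 of 120 cases between thinning depths, as the depth sets them.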

Other observations

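Nrg2, which encodes neuregulin 2, had 22.8 CPM (17.3 to 29.6) in FB5-like cells against 2.84 CPM in the unclassed clusters, 8.04-fold (5.68 to 11.3). In YAP-target-high clusters, Areg was 0.565-fold (0.476 to 0.669), Nrg2 0.597-fold (0.382 to 0.923) and Btc 1.81-fold (1.60 to 2.05), so ligands of the same family lay on either side of 1. Plat at 0.450-fold (0.380 to 0.533), Mst1r at 0.354-fold (0.254 to 0.486) and Fgf1 at 0.226-fold (0.132 to 0.371) were past 2-fold in the lower direction there, as were the receptor genes Fgfr3 at 0.430-fold (0.275 to 0.658) and Fgfr4 at 0.458-fold (0.287 to 0.715) and the syndecan gene Sdc3 at 0.477-fold (0.391 to 0.580). The glypican genes Gpc4 at 3.43-fold (2.97 to 3.96) and Gpc6 at 2.58-fold (2.40 to 2.78) were past 2-fold in the higher direction. Of all genes, 2.87% were lower and 2.56% higher. Within the clusters low and those high in immediate early genes, Mst1r (0.267 and 0.378), Gpc4 (3.90 and 2.87) and Gpc6 (2.44 and 2.75) were past 2-fold in both. Plat (0.375 and 0.502) and Sdc3 (0.404 and 0.618) were past it among the low clusters alone. Fgf1 (0.249 and 0.204), Fgfr3 (0.396 and 0.392) and Fgfr4 (0.597 and 0.307) had fewer than 50 UMIs in one of the sets or lay short of 2-fold there.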
